A study of Homo sapiens with 6 samples.

Results

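The interferon regulatory factors are transcription factors that bind DNA through a shared amino-terminal domain and that control interferon production, the response to interferon and the development of several blood lineages. Islands of 2 histone marks, H3K27me3 and H3K4me3, were read at 8 of their genes: IRF1, IRF2, IRF3, IRF4, IRF5, IRF7, IRF8 and IRF9. The genes were chosen by name out of 19974 protein-coding genes on chromosomes 1 to 22 and X, and each was read over its GRCh38 span with 10 kb on either side. An island is an enriched stretch that the peak caller merged from neighbouring windows, and its score is the authors' own, a measure of significance (−log10 scale) that ranks islands inside 1 list and is not compared between lists.

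The cells were endothelial cells derived from H1, an established human embryonic stem cell line, and labelled GATA2 positive. They were derived in the presence of Vc (Vc+) or in its absence (Vc-), where the series title gives Vc as vitamin C, a cofactor of the demethylases that remove methyl groups from histone tails. All groups share the H1 genotype and the GATA2-positive label, whereas the series design text names cells with and without a GATA2 reporter. The 6 samples comprise H3K27me3, H3K4me3 and input in each condition, and the 4 mark libraries each had 1 deposited island list. With 1 library per mark and condition no replicate check and no test could be had, so every difference below is a difference between 2 libraries. The names of the 4 files carry the opposite condition to the sample labels. Directions follow the labels and would turn round if the file names were right.

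H3K4me3 is found at promoters that are active or poised. H3K27me3 is laid down by Polycomb repressive complex 2 and is found at silent developmental and lineage genes, and promoters that carry both marks are called bivalent. Within the family, IRF3 and IRF7 switch on type I interferon genes after infection, and IRF9 is the DNA-binding subunit of the complex that answers type I interferon. IRF1 and IRF2 bind the same sites as an activator and its antagonist. IRF4 and IRF8 direct lymphoid and myeloid development, and IRF5 drives inflammatory cytokine genes in myeloid cells.

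The family divided into genes with both marks and genes with H3K4me3 alone. H3K4me3 was called at the start of all 8 genes in both conditions. H3K27me3 was called at IRF4, IRF5 and IRF8 in both conditions. It was called at IRF1, IRF2, IRF3, IRF7 and IRF9 in neither. The starts of the first group are shown here against those of the second, because CpG-rich promoters are the usual seat of both marks. The letters are the 250 bases before a RefSeq start in GRCh38.p14, 5′ to 3′, with each CpG in capitals. The starts that follow the stretches of IRF4 (chr6:391502-391751, plus strand) and IRF5 (chr7:128937677-128937926, plus strand) carried both marks. Those that follow the stretches of IRF1 (chr5:132490774-132491023, minus strand) and IRF9 (chr14:24161015-24161264, plus strand) carried H3K4me3 alone. Not all printed bases lay inside an H3K4me3 island. At IRF9 the islands began at 24161201 in both conditions, and at IRF5 the island in Vc- began at 128937801.
IRF4: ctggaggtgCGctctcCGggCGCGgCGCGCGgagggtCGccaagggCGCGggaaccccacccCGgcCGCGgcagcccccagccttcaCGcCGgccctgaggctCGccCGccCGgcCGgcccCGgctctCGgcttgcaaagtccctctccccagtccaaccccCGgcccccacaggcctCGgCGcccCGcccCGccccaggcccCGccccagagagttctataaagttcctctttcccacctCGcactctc
IRF5: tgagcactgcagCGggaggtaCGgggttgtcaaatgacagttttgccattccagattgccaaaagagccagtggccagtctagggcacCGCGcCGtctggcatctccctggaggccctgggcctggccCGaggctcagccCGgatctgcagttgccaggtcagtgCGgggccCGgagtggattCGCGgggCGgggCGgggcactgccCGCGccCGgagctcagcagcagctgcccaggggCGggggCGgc
IRF1: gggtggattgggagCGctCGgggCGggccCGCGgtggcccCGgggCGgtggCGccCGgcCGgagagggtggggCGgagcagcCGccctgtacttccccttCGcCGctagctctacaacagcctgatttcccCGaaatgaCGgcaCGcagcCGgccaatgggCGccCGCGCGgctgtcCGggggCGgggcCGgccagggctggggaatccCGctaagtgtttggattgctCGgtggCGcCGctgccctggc
IRF9: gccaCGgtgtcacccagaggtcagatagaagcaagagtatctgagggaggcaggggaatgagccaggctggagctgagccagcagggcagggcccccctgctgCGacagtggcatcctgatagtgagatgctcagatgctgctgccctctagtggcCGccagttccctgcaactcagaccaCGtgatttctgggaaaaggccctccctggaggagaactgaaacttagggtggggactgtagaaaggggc
The printed stretches held 28 CpG at IRF4, 18 at IRF5, 29 at IRF1 and 4 at IRF9. The start of IRF1, which lacked H3K27me3, was therefore as rich in CpG as that of IRF4, and IRF9 stood apart from the other 3. The promoter table matched 5 of the 8 genes, without IRF2, IRF3 and IRF7, and for IRF8 it gave internal starts.

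H3K4me3 at 8 of 8 genes (exact 95% interval 63.1 to 100%, counting error only) stood against a background of 72.8% of all protein-coding genes in Vc+ and 72.4% in Vc-, or 71.6% in both conditions. H3K27me3 at 3 of 8 genes (37.5%, exact 95% interval 8.52 to 75.5%) stood against a background of 16.8% in Vc+ and 15.4% in Vc-, or 14.1% in both conditions. Both intervals of the family include the background, so neither share is a result about these genes. Both marks together were called at 15.3% of all genes in Vc+, 13.8% in Vc- and 12.6% in both conditions. All 8 genes had the same state in the conditions compared, as did 94.2% of all genes. A start here means a RefSeq start with 1 kb on either side. For IRF2, IRF3 and IRF7, whose strand the tables do not give, both ends of the span were read, and the islands lay at the higher-coordinate end, from which these genes are known to be transcribed.

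**Figure D1:**
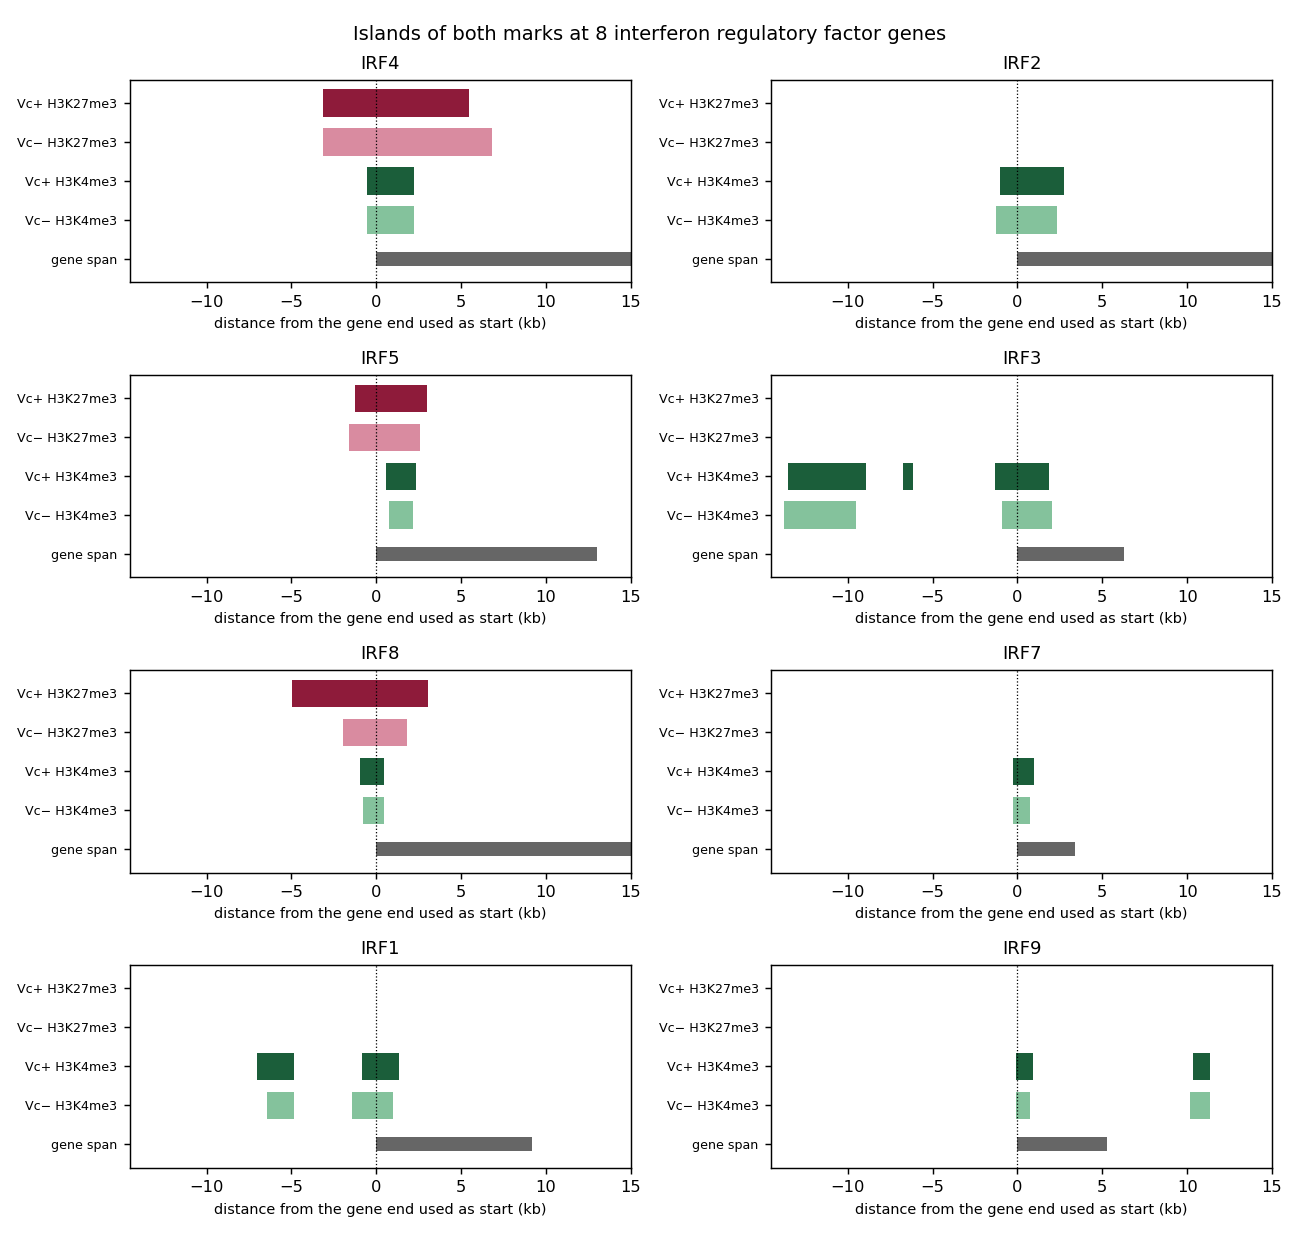
Islands of H3K27me3 (red) and H3K4me3 (green) around 8 interferon regulatory factor genes, with distance in kb from the gene end used as start on the horizontal axis and 1 track per library, Vc+ above Vc-; the grey bar is the gene span, cut off at the right edge for IRF2, IRF4 and IRF8. H3K27me3 tracks are filled at IRF4, IRF5 and IRF8 and empty at the other 5 genes, and the H3K27me3 bar at IRF8 is 8.0 kb long in Vc+ and 3.8 kb in Vc-.

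IRF8 (NCBI gene 3394, chromosome 16, 85899162 to 85922609), a factor of monocyte, dendritic cell and B cell development, had the largest difference in H3K27me3 width of the 3 genes. Its island ran from 85894201 to 85902200 in Vc+, against 85897201 to 85901000 in Vc-. These are widths of 8.0 kb in Vc+ and 3.8 kb in Vc-, a ratio of 2.11 (1.07 on the log2 scale). The Vc- island lay wholly inside the Vc+ island, which reached 3.0 kb further upstream and 1.2 kb further into the gene. Scores were 48.7 in Vc+ and 58.7 in Vc-, above 83.0% and 85.8% of the islands in their own lists.

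The difference in width at IRF8 has to be read against the lists, since H3K27me3 islands covered 51.7 Mb in Vc+ and 40.6 Mb in Vc-. Among 2813 genes with a promoter island of H3K27me3 in both libraries, the median ratio of widths was 0.17 on the log2 scale (quartiles -0.09 to 0.56), with wider islands in Vc+. An island at least 2-fold wider in Vc+ was found at 311 of these genes (11.1%), and at 46 genes (1.64%) it was at least 2-fold wider in Vc-. A ratio above that of IRF8 was found at 8.71% of them. IRF8 was singled out after its value was seen, and it lies in the upper part of a spread that many genes share.

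H3K4me3 at IRF8 was narrow and differed by a single 200 bp window. The island ran from 85898201 to 85899600 in Vc+, against 85898401 to 85899600 in Vc-, which gives 1.4 kb and 1.2 kb. It lay wholly within the H3K27me3 island in both conditions and took up 17.5% of that island in Vc+ and 31.6% in Vc-. RefSeq also lists starts inside IRF8 at 85902830 and 85903015. No H3K4me3 island lay within 1 kb of these starts in either library, and an H3K27me3 island did so in Vc+ alone, at its downstream edge.

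IRF4 (gene 3662, chromosome 6, 391752 to 411443), a factor of plasma cells and activated lymphocytes, carried the widest H3K27me3 island of the family in either condition. The island ran from 388601 to 397200 in Vc+, against 388601 to 398600 in Vc-, so that it was 8.6 kb wide in Vc+ and 10.0 kb wide in Vc-. The upstream edge fell on the same base in both libraries, 3.15 kb before the start. The downstream edge lay 1.4 kb further into the gene in Vc-. Its direction was therefore opposite to that at IRF8, with a ratio of 0.86, and 17.3% of the 2813 genes had a lower ratio. Scores were 165 in Vc+ and 165 in Vc-, above 96.3% and 96.2% of the islands in their lists, the highest ranks for this mark among the 3 genes.

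The H3K4me3 island at IRF4 had the same edges in both libraries, 391201 to 394000, and was 2.8 kb wide. It reached from 0.55 kb before the start to 2.25 kb inside the gene. H3K27me3 covered all of it and extended beyond it by 2.6 kb upstream in both conditions and by 3.2 kb in Vc+ and 4.6 kb in Vc- on the downstream side. Its score was 82.3 in Vc+ and 54.4 in Vc-, above 55.2% and 42.7% of the islands in their lists.

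IRF5 (gene 3663, chromosome 7, 128937032 to 128950038) carried an H3K27me3 island of the same width in both conditions. It ran from 128935801 to 128940000 in Vc+, against 128935401 to 128939600 in Vc-, 4.2 kb in each, with 3.8 kb shared. The island was displaced by 0.4 kb, which is 2 of the 200 bp windows from which islands are built. Scores were 64.4 in Vc+ and 76.1 in Vc-, above 87.1% and 89.9% of their lists. By width it lay below the middle of the islands at promoters, as 28.2% of the 2813 genes had a narrower one in Vc+ and 38.8% in Vc-. Among all islands of its lists, 52.6% in Vc+ and 65.5% in Vc- were narrower.

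IRF5 has several RefSeq starts, and the marks were not spread over all of them. The H3K4me3 island ran from 128937601 to 128939400 in Vc+, against 128937801 to 128939200 in Vc-, which gives 1.8 kb and 1.4 kb. Both islands covered the starts at 128937927 and 128938217. Neither reached the lower-coordinate end of the gene span, which lay 0.57 kb away in Vc+ and 0.77 kb away in Vc-. The starts at 128940670 and 128941268 had no H3K4me3 island within 1 kb in either library, and the first of these had an H3K27me3 island within 1 kb in Vc+ alone. The starts of IRF5 under H3K4me3 were CpG-rich, with 25 and 34 CpG in 300 bases, whereas the others had 8 and 5.

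At all 3 genes with both marks the H3K4me3 island lay wholly inside the H3K27me3 island in both conditions. That arrangement was found at 59.6% of 3049 genes with both marks in Vc+ and at 56.1% of 2750 genes in Vc-. The marks were measured on the same kind of cells and not on the same molecules, so that both marks on 1 chromosome and a mixture of cells with either mark cannot be told apart.

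**Figure D2:**
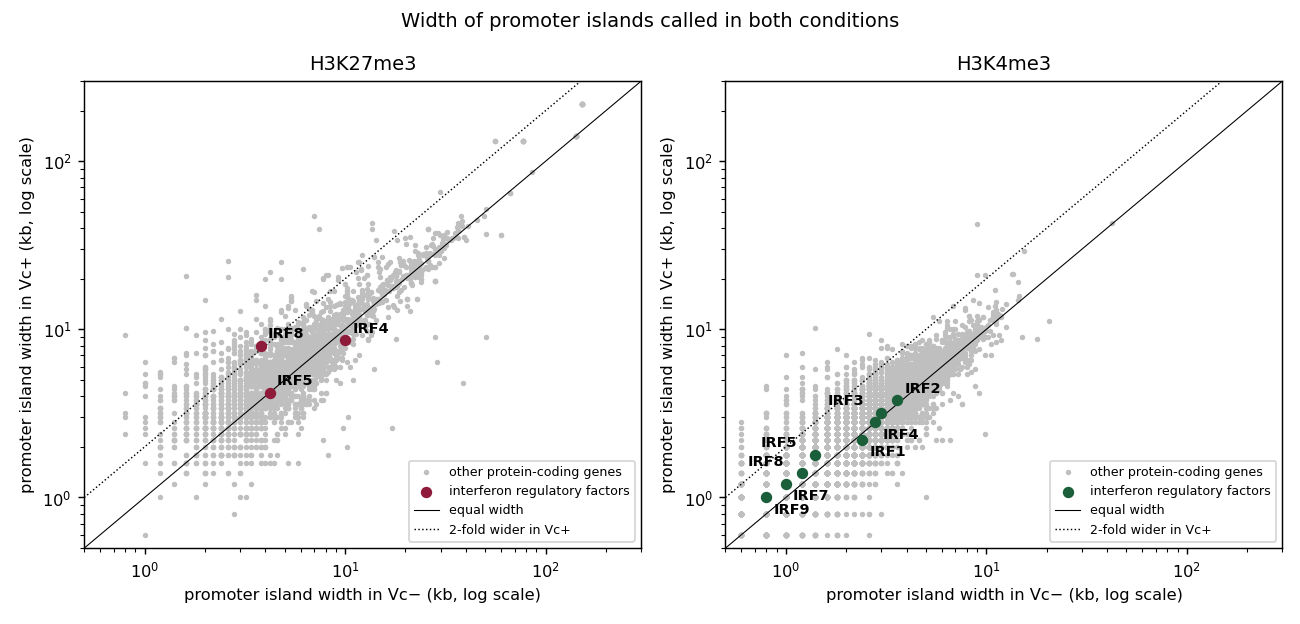
Width in kb of promoter islands in the library labelled Vc+ (vertical, log scale) against the library labelled Vc- (horizontal, log scale), for H3K27me3 (left, 2813 genes) and H3K4me3 (right, 14301 genes) called in both; coloured points are interferon regulatory factors and grey points other protein-coding genes. IRF8 lies just above the dotted line of a 2-fold wider island in Vc+, IRF5 on the line of equal width and IRF4 below it, while all 8 genes lie near equality for H3K4me3.

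The 5 remaining genes had no H3K27me3 island within 10 kb of their spans in either library. The nearest such island to a start was 20.3 kb away in Vc+ and 18.7 kb in Vc- at IRF7. At IRF9 it was 77.9 kb and 77.5 kb away, and at IRF1 120 kb and 87.6 kb. The distances were 217 kb in both conditions at IRF3, and 349 kb in Vc+ and 348 kb in Vc- at IRF2.

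IRF2 (gene 3660, chromosome 4, 184387729 to 184474550) had the widest H3K4me3 promoter island of the family, from 184471801 to 184475600 in Vc+, against 184472201 to 184475800 in Vc-. It was 3.8 kb wide in Vc+ and 3.6 kb in Vc-, with scores above 94.1% and 92.4% of their lists. The island also overlapped IRF2-DT, a long non-coding RNA gene that neighbours IRF2, and cannot be assigned to either gene alone. IRF1 (gene 3659, chromosome 5, 132481609 to 132490773) had an island from 132489401 to 132491600 in Vc+, against 132489801 to 132492200 in Vc-. This was 2.2 kb in Vc+ and 2.4 kb in Vc-, and IRF1 was the only member with a narrower H3K4me3 promoter island in Vc+. Its ratio of 0.92 was a difference of 1 window of 200 bp.

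IRF3 (gene 3661, chromosome 19, 49659572 to 49665857) had an H3K4me3 island from 49664001 to 49667200 in Vc+, against 49663801 to 49666800 in Vc-. It was 3.2 kb wide in Vc+ and 3.0 kb in Vc-, and it also held the start of BCL2L12 and cannot be assigned to either gene alone. IRF7 (gene 3665, chromosome 11, 612555 to 615950) had an island from 615001 to 616200 in Vc+, against 615201 to 616200 in Vc-, which gives 1.2 kb and 1.0 kb. The H3K4me3 islands at IRF3 and IRF7 differed in width, though the one at IRF3 is shared with BCL2L12. Only 5.24% of 14301 genes with islands in both conditions had a narrower one than IRF7 in Vc+ and 3.68% in Vc-. For IRF3 the shares were 67.1% in Vc+ and 70.1% in Vc-.

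IRF9 (gene 10379, chromosome 14, 24161265 to 24166565) had the narrowest and lowest-ranked promoter island of the family. It ran from 24161201 to 24162200 in Vc+, against 24161201 to 24162000 in Vc-, so that it was 1.0 kb wide in Vc+ and 0.8 kb in Vc-. Only 2.48% of genes in Vc+ and 1.34% in Vc- had a narrower one. Scores were 20.2 in Vc+ and 16.2 in Vc-, above 23.8% and 19.3% of their lists. The island lay almost wholly downstream of the start, with 0.06 kb upstream of it.

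For H3K4me3 the ratio of promoter widths lay between 0.92 and 1.29 over the 8 genes, with the highest at IRF5. The median over 14301 genes was 0.13 on the log2 scale (quartiles -0.07 to 0.35). No member reached a 2-fold difference, against 3.1% of genes that were at least 2-fold wider in Vc+ and 0.741% in Vc-. Widths come in steps of 200 bp, so a ratio such as 1.25 at IRF9 is a single step. The overlap of the paired islands as a Jaccard index, the shared length over the joined length, was 0.643 at IRF1 and between 0.778 and 1 at the other 7, against a median of 0.8 over all genes with islands in both conditions. For H3K27me3 it was 0.475 at IRF8, 0.826 at IRF5 and 0.86 at IRF4, against a median of 0.706 over the 2813 genes.

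Away from the starts, the windows held few islands. Upstream of IRF1, H3K4me3 was called from 132495601 to 132497800 in Vc+, against 132495601 to 132497200 in Vc-, with its near edge 4.83 kb before the start of IRF1. No gene of the RefSeq table overlapped it, and no start lay inside it. Its score was 83.9 in Vc+ and 99.2 in Vc-, in both libraries higher than that of the island at the start of IRF1 itself, 73.5 in Vc+ and 58.7 in Vc-. The other distal islands lay at neighbours. An island at PRMT1, which encodes an arginine methyltransferase, reached into the window of IRF3, and an island at REC8, which encodes a meiotic cohesin subunit, lay in the window of IRF9, both in both conditions. A single island was found in 1 condition alone, an H3K4me3 island of 0.6 kb inside BCL2L12 in Vc+ with a score of 23.4. In all, the windows held 12 H3K4me3 islands covering 22.3 kb in Vc+ and 11 covering 19.5 kb in Vc-. For H3K27me3 there were 3 islands covering 20.8 kb in Vc+ and 3 covering 18.0 kb in Vc-.

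CpG content was then counted over 300 bases at each RefSeq promoter, 250 before and 50 after the start, for 22132 promoters of protein-coding genes. The start of IRF1 had 36 CpG, that of IRF4 32 and the starts of IRF5 under both marks 25 and 34. These numbers exceeded those of 83.6%, 75.6%, 58.6% and 79.9% of promoters. Promoters with both marks in both conditions had a median of 28 (n = 2266) and those with H3K4me3 alone a median of 27 (n = 12435), so these medians lay 1 CpG apart. Promoters with neither mark had a median of 4 (n = 6026). IRF9 had H3K4me3 at a start with 7 CpG, and 23.9% of promoters had fewer. The internal starts of IRF8 had 3 and 9.

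**Figure D3:**
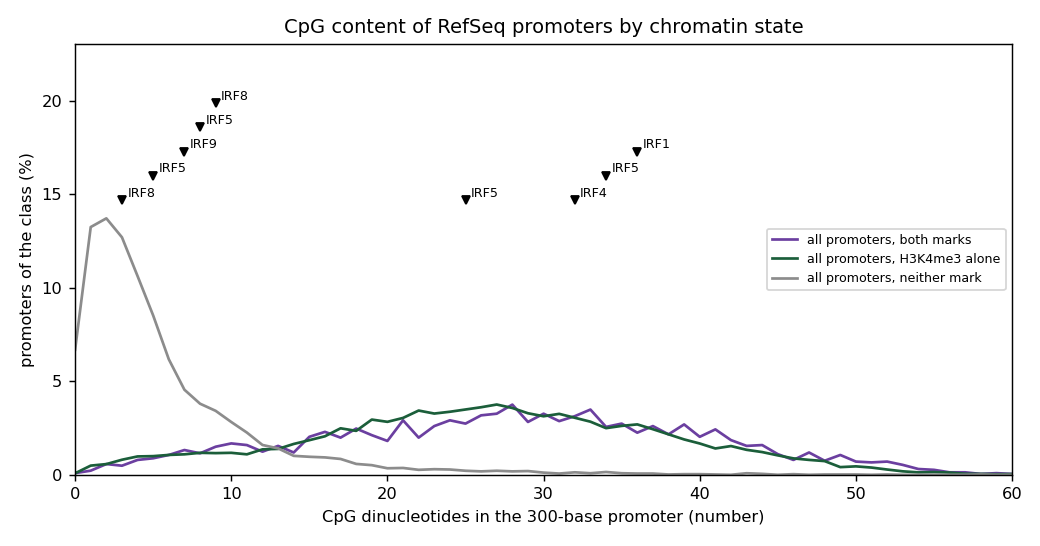
Number of CpG dinucleotides in 300-base RefSeq promoters (horizontal) against the percentage of promoters in each class (vertical), for promoters with both marks, H3K4me3 alone or neither mark in both conditions. Triangles above the curves mark the 9 promoters of interferon regulatory factors at their CpG number (their height has no meaning). IRF1 at 36, IRF4 at 32 and IRF5 at 25 and 34 stand at CpG numbers where the curves of marked promoters exceed that for neither mark. IRF9 at 7 stands where the curve for neither mark is the highest of the 3.

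Several known response motifs were searched on both strands of the same 300 bases. An NF-κB consensus was matched at IRF1 as GGGGAATCCC, 50 bases before the start, and in 6.53% of all promoters. A TATAAA box was matched 32 bases before the start of IRF4 and 188 bases before the start of IRF5 at 128940670, and in 9.46% of promoters. The interferon-stimulated response element, a pair of GAAA runs parted by any 2 bases, was matched at 0 of the 9 promoters, against 3.17% of all. These 9 came from 5 of the 8 genes, and so few cannot set the family apart from that share. A match shows letters and not binding.

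The rest of the interferon pathway was read by the same rule, in lists chosen by function. For genes whose strand the tables do not give, an island at either end of the gene counted. Among the pathway genes named here these were USP18, CGAS, OASL, TLR7, DHX58, STING1, SPI1, BATF3 and IKZF3. Among the cell type markers named below they were CDH5, ESAM, CLDN5, VWF, SPN, SPI1, POU5F1, LIN28A and COL1A1. Among 15 receptor and JAK-STAT genes H3K4me3 was called at all 15 in both conditions, against 71.6% of all genes. H3K27me3 was called at 2 of the 15 in Vc+ and 2 in Vc-, near the 16.8% and 15.4% of all genes. USP18, which encodes a protease that removes ISG15, had H3K27me3 in both conditions. JAK1, a kinase of interferon receptors, had an H3K27me3 island in Vc+ alone, 1.8 kb wide with a score of 8.86. IFNLR1, a chain of the receptor for lambda interferons, had one in Vc- alone, 2.0 kb wide with a score of 10.1. The background of such calls among protein-coding genes was 2.72% in Vc+ alone and 1.34% in Vc- alone.

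Among 19 sensors, adaptors and kinases H3K4me3 was called at 13 in both conditions, against 71.6% of all genes. H3K27me3 was called at 2 of the 19 in Vc+ and 1 in Vc-, against 16.8% and 15.4% of all genes. IFIH1, which encodes the RNA sensor MDA5, had it in both conditions, and CGAS, which encodes a sensor of cytosolic DNA, in Vc+ alone with a score of 9.31. Widths at IFIH1 were the same as at GCA, so those islands may be shared. TLR3, TLR7, TLR8, TLR9, DHX58 and STING1 had neither mark within the 1 kb limit in either library. At DHX58 the nearest H3K27me3 island lay 1.81 kb from a gene end in Vc+ and 2.81 kb in Vc-.

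Among 27 interferon-stimulated genes H3K4me3 was called at 15 in each condition, against 72.8% of all genes in Vc+ and 72.4% in Vc-. H3K27me3 was called at 4 of the 27 in Vc+ and 2 in Vc-, against 16.8% and 15.4% of all genes. MX1, an antiviral GTPase, had an H3K27me3 island of 3.4 kb in Vc+ and 2.6 kb in Vc-. RSAD2, which encodes viperin, had one of 3.0 kb in Vc+ and 2.4 kb in Vc-. The widths were the same at CMPK2, so the islands may be shared between these genes. IFIT5, which encodes an RNA-binding antiviral protein, and SAMHD1, which encodes a nucleotide hydrolase, had one in Vc+ alone, with scores of 12 and 5.96. The nearest H3K27me3 island in Vc- was 119 kb from the start of IFIT5 and 642 kb from that of SAMHD1. H3K4me3 differed at IFIT1, called in Vc- alone with a score of 26.2, and at OASL, called in Vc+ alone. At OASL the islands lay 0.961 kb from a gene end in Vc+ and 1.16 kb in Vc-, on either side of the 1 kb limit, so that call differed little. For H3K4me3 the background was 1.16% of genes in Vc+ alone and 0.806% in Vc- alone.

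**Figure D4:**
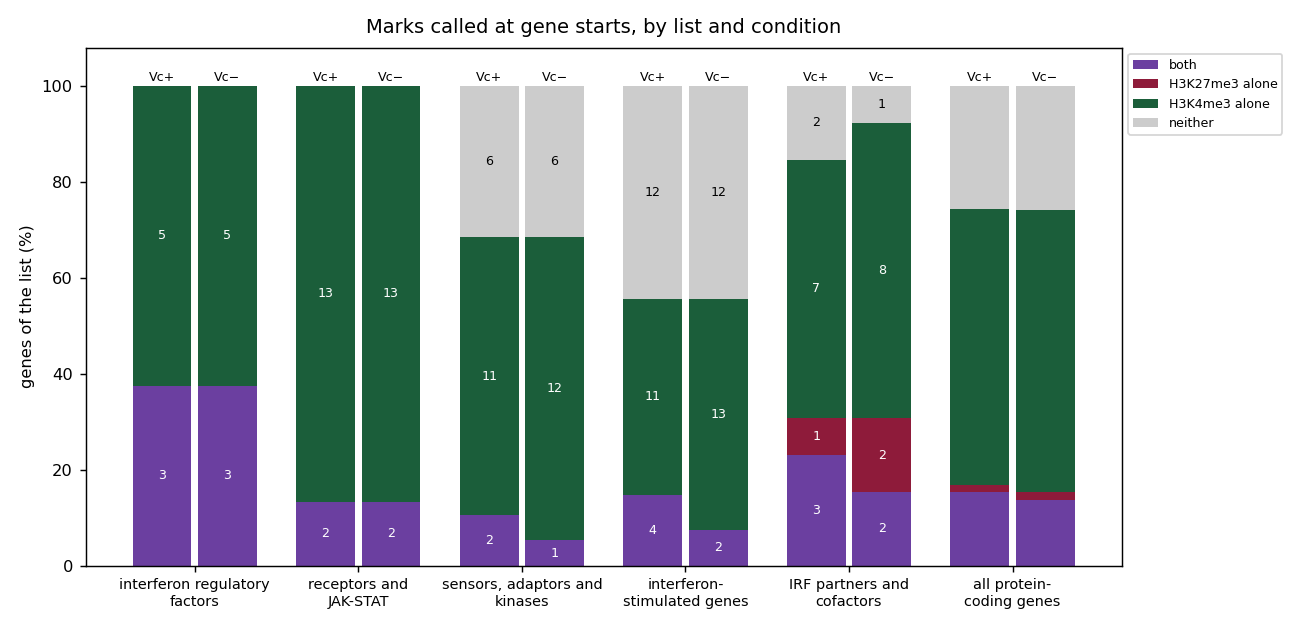
Percentage of genes (vertical) with both marks, H3K27me3 alone, H3K4me3 alone or neither at their starts, in Vc+ (left bar) and Vc- (right bar), for the interferon regulatory factors, 4 lists of the interferon pathway and all protein-coding genes; numbers in the bars count genes. The interferon regulatory factors have 3 genes with both marks and 5 with H3K4me3 alone in each condition, and 12 of 27 interferon-stimulated genes have neither mark in each condition, against 25.7% of all genes in Vc+ and 25.9% in Vc-.

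The cell label was read through H3K4me3 at defining markers. It was called at 10 of 10 endothelial markers in Vc+ and 9 of 10 in Vc-, where VWF lacked it, against 72.8% and 72.4% of all protein-coding genes. H3K27me3 was also called at 5 of these 10 markers in Vc+ and 3 in Vc-, against 16.8% and 15.4% of all genes. ERG, ESAM and CLDN5 had H3K27me3 in both conditions, and CDH5 and VWF in Vc+ alone. At VWF either gene end counted, and the nearest H3K27me3 island in Vc- lay 1.08 kb away, just past the 1 kb limit. The VWF difference in this mark therefore hangs on the limit. The H3K4me3 island at VWF in Vc+ had a score of 9.49, and in Vc- the nearest lay 2.88 kb from a gene end. Of 6 blood markers H3K4me3 was called at SPI1 and CORO1A in both conditions, and PTPRC, SPN, CD48 and LCP1 had neither mark. Of 4 pluripotency markers H3K4me3 was called at LIN28A and DPPA4 in both conditions and at POU5F1 and NANOG in neither. Of 4 mural and mesenchymal markers H3K4me3 was called at RGS5, ACTA2 and COL1A1 in both conditions. None of the blood, pluripotency, mural and mesenchymal markers had an H3K27me3 call in either condition. The part of other cell types in the islands at interferon regulatory factors was not tested.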

How the data were processed

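H3K27me3 and H3K4me3 chromatin immunoprecipitation libraries of GATA2-positive endothelial cells derived from H1 cells were read from 4 deposited island lists, grouped by the sample titles. The 2 inputs were not used. The submitters' processing notes name Bowtie2, SICER, deepTools, hg38 and GRCh38, while versions, roles and settings are not given in the sources used here. The deposited score was read as the authors' −log10 false discovery rate per island, since its values run from 2 to 309 with a cap at 1000. It was used only within a list. From the values, island widths are multiples of 200 bp, and gaps are at least 800 bp for H3K27me3 and 400 bp for H3K4me3. The lists held 9639 H3K27me3 islands in Vc+ and 8990 in Vc-, and 21991 and 22307 H3K4me3 islands, on chromosomes 1 to 22 and X. Read depth is unknown from these lists, so the exact Clopper-Pearson intervals (95%) are for counting error alone.

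Genes and starts came from RefSeq tables of GRCh38.p14. A gene was called where at least 1 bp of an island fell within 1 kb of a listed start or the 5′ end of the span (15812 genes), or of either end where no strand was given (4162 genes). Where more than 1 island met this rule at a gene, the width given is their sum and the score the highest of them. An island that met the rule at several genes was counted at each of them. Exons, introns and untranslated regions are not told apart. The members and gene lists were chosen with earlier results of these data known, and the motifs with the member sequences in view. All 8 members were named, with list genes that carried H3K27me3 in either condition or differed in H3K4me3. A listed pathway gene and a motif are not reported here. The overlap calls were checked with bedtools 2.31.1 and with simulated islands. Python 3.11.15, numpy 2.4.6, scipy 1.17.1 and matplotlib 3.10.9 were used.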

Additional observations from a re-analysis of the deposited data

How the results depend on the processing

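The numbers of interferon regulatory factor genes with H3K4me3, H3K27me3 or both marks, and the genes themselves, were the same under 6 alternatives: windows of 500 bp and 2 kb, a score of at least 10, equal numbers of islands per mark, either gene end for every gene, and an overlap of at least 200 bp. Of these, the score limit and the equal numbers could not change the calls, since they drop only islands of low rank. The lowest-scoring promoter island of a member, at IRF9 in Vc-, scored 16.2, above 19.3% of its list. Covered lengths moved with the flank by construction. Without a flank H3K27me3 covered 11.5 kb in Vc+ and 11.3 kb in Vc-, and H3K4me3 12.4 kb and 11.0 kb. With 25 kb on either side H3K27me3 covered 37.2 kb in Vc+ and 29.2 kb in Vc-, and H3K4me3 43.4 kb and 40.0 kb. The same 2 limits on islands, added for the width ratios at IRF4, IRF5 and IRF8 after seeing the data, could not alter them, since they drop whole low-scoring islands and trim none. No paired analysis was possible because each mark and condition has 1 library. An island width depends on depth and on the merging of windows, neither of which could be varied here.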

Other observations

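Partners and cofactors of the interferon regulatory factors had some of the longer H3K27me3 lengths of the pathway. Of 13 such genes, H3K27me3 was called at 4 in Vc+ and 4 in Vc-, 3 of them in both conditions, against 16.8%, 15.4% and 14.1% of all protein-coding genes. PRDM1, the repressor that drives plasma cell differentiation, had H3K27me3 over 23.4 kb in Vc+ and 20.2 kb in Vc-, together with H3K4me3 over 14.4 kb and 9.2 kb. These lengths are summed over all islands called at its starts. BATF3, a partner of IRF8 in dendritic cells, had both marks in both conditions, with H3K27me3 over 8.8 kb in Vc+ and 7.2 kb in Vc-. IKZF3, a lymphoid zinc finger factor, had H3K27me3 without H3K4me3, over 10.0 kb in Vc+ and 8.8 kb in Vc-. SPIB, an ETS factor that binds DNA with IRF4 in B cells, had H3K27me3 in Vc- alone, and IKZF1, a lymphoid zinc finger factor, in Vc+ alone. Over all genes such calls made up 2.72% in Vc+ alone and 1.34% in Vc- alone. SPI1, which encodes the myeloid partner of IRF4 and IRF8, had H3K4me3 without H3K27me3 in both conditions. BATF had neither mark in either library.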
